A study of Mus musculus with 12 samples.

Results

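The 8 genes followed here encode well known transcription factors of effector and memory CD8+ T cells, and were measured on 12 mouse arrays: Tbx21, Eomes, Id2, Prdm1, Zeb2, Runx3, Bcl6 and Irf4. They were chosen by name, as were the gene lists used below, with earlier results of these data known. Counts of members or listed genes set beside all features are therefore descriptive. Each member was read by its brightest probe among those well above background on at least 2 arrays. All 8 of the 8 genes had such a probe, out of 13882 named genes that had one. The genes lie on chromosomes 11, 9, 12, 10, 2, 4, 16 and 13, in the order given, and had 1, 2, 1, 1, 3, 2, 1 and 2 probes on the array.

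The samples were CD8+ T cells from lymph nodes of female C57BL/6 mice, isolated with magnetic beads and a flow sorter. Each was hybridised to 1 Agilent 1-colour array. For total CD8+ T cells there were 2 arrays labelled uMT (1 from mesenteric lymph node, MLN, and 1 from peripheral lymph node, PLN), 2 labelled AID KO (1 MLN, 1 PLN) and 4 of wild type, WT (2 MLN, 2 PLN). Naive cells, defined by low CD44 and taken from PLN only, gave 4 arrays: the Sca1p and Sca1m fractions of uMT mice and the Sca1p and Sca1m fractions of AID KO mice. Sca1p and Sca1m are read here as positive and negative for the surface protein Sca-1. By array barcode, the arrays stood on 3 slides of 4 arrays. Slide 1 held AID KO PLN, uMT MLN and 1 WT array of each node. Slide 2 held AID KO MLN, uMT PLN and the other WT array of each node, and slide 3 held the naive arrays. The labels give no age, no allele and no number of pooled animals. In the uMT line as it is generally known, a disrupted immunoglobulin mu heavy chain stops B cell development. There were no naive WT arrays, and the submitters describe the series as having no replicates, so a p-value here measures departure from the additive terms of the fit and not spread between animals.

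As background, a CD8+ T cell that meets antigen turns on factors that open the cytotoxic programme and close the naive one. T-bet (Tbx21), Blimp-1 (Prdm1), Zeb2 and Id2 favour short-lived effector cells, whereas Eomes and Bcl6 are associated with long-lived memory cells, and Bcl6 and Blimp-1 repress each other. Runx3 sets the CD8 lineage and its cytotoxic genes, and Irf4 is induced by the antigen receptor with the strength of its signal. Some antigen-inexperienced CD8+ T cells acquire memory features, among them Eomes, T-bet, Cxcr3 and Ly6C, under cytokines alone.

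Between arrays, the intensity at the 75th percentile was 303.1 to 538.6, and 50.1% to 56.8% of spots were well above background. Levels below are log2 intensities minus that percentile of the same array, so 0 is the brightness of a probe at the 75th percentile. Ly6a, which encodes Sca-1, lay between 3.94 and 4.41 on the Sca1p arrays and between 0.43 and 0.57 on the Sca1m arrays. Cd44 lay between -1.53 and -0.78 on the naive arrays and between 0.37 and 1.32 on the total-cell arrays. The allele is not given, so AID KO below means the arrays labelled so. Of the markers listed, 10 of 10 of CD8 T cells were kept by the filter of 2 arrays, 7 of 8 of CD4 and regulatory T cells, 8 of 11 of NK cells, 8 of 14 of B cells, 4 of 6 of plasma cells, 4 of 9 of macrophages, 5 of 10 of dendritic cells and 2 of 6 of erythroid cells. Defining markers below the filter included Ms4a1 (B cells), Ncr1 (NK cells), Adgre1 and Lyz2 (macrophages) and Flt3 and Clec9a (dendritic cells). The kept dendritic markers still summed, on the linear scale, to 304 to 343 times the 75th percentile in naive cells and 56.6 to 154 times in total cells. Among total-cell arrays the sums of these markers were 56.6 to 72.6 on slide 1 and 141 to 154 on slide 2. The naive arrays were all on slide 3, so cell type and slide cannot be told apart in these sums. Only 2 to 3 of these 5 markers were well above background on each naive array, against 4 to 5 on each total-cell array.

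Tbx21 and Eomes were brighter in total cells than in naive cells, the other members were not set apart in that way, and Zeb2 was close to background. Tbx21 ranged from 2.30 to 2.91 in the 8 total-cell arrays and from -0.77 to -0.17 in the 4 naive arrays, with no overlap. Eomes ranged from 2.31 to 3.003 in total cells and from 1.36 to 2.24 in naive cells, also with no overlap. The naive arrays stood on a slide of their own, so cell type and slide cannot be told apart and this difference was not tested. The share of all features that also did not overlap is not given here, so the separation is not read as particular to these genes. In these bulk samples, fewer cells that express a gene and less of its RNA per cell cannot be told apart either.

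The other members overlapped between both kinds of cells. Id2, which binds E proteins and blocks them, lay between 3.82 and 4.79 in total cells and between 4.27 and 4.88 in naive cells. Runx3 stayed within 2.14 to 2.76 in total cells and 2.53 to 2.63 in naive cells, the narrowest naive range of the 8 genes. Bcl6 spanned 2.04 to 2.46 in total cells and 1.58 to 2.61 in naive cells. Irf4 spanned -1.12 to 0.44 and -0.42 to 0.05, and Prdm1 -2.76 to -1.48 and -1.96 to -1.44, in total and naive cells. Zeb2 lay between -5.03 and -3.88 in total cells and between -5.05 and -3.41 in naive cells, and only 4 of its 12 spots were well above background: the AID KO PLN array, the WT PLN array of the same slide, and both uMT naive arrays.

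**Figure D1:**
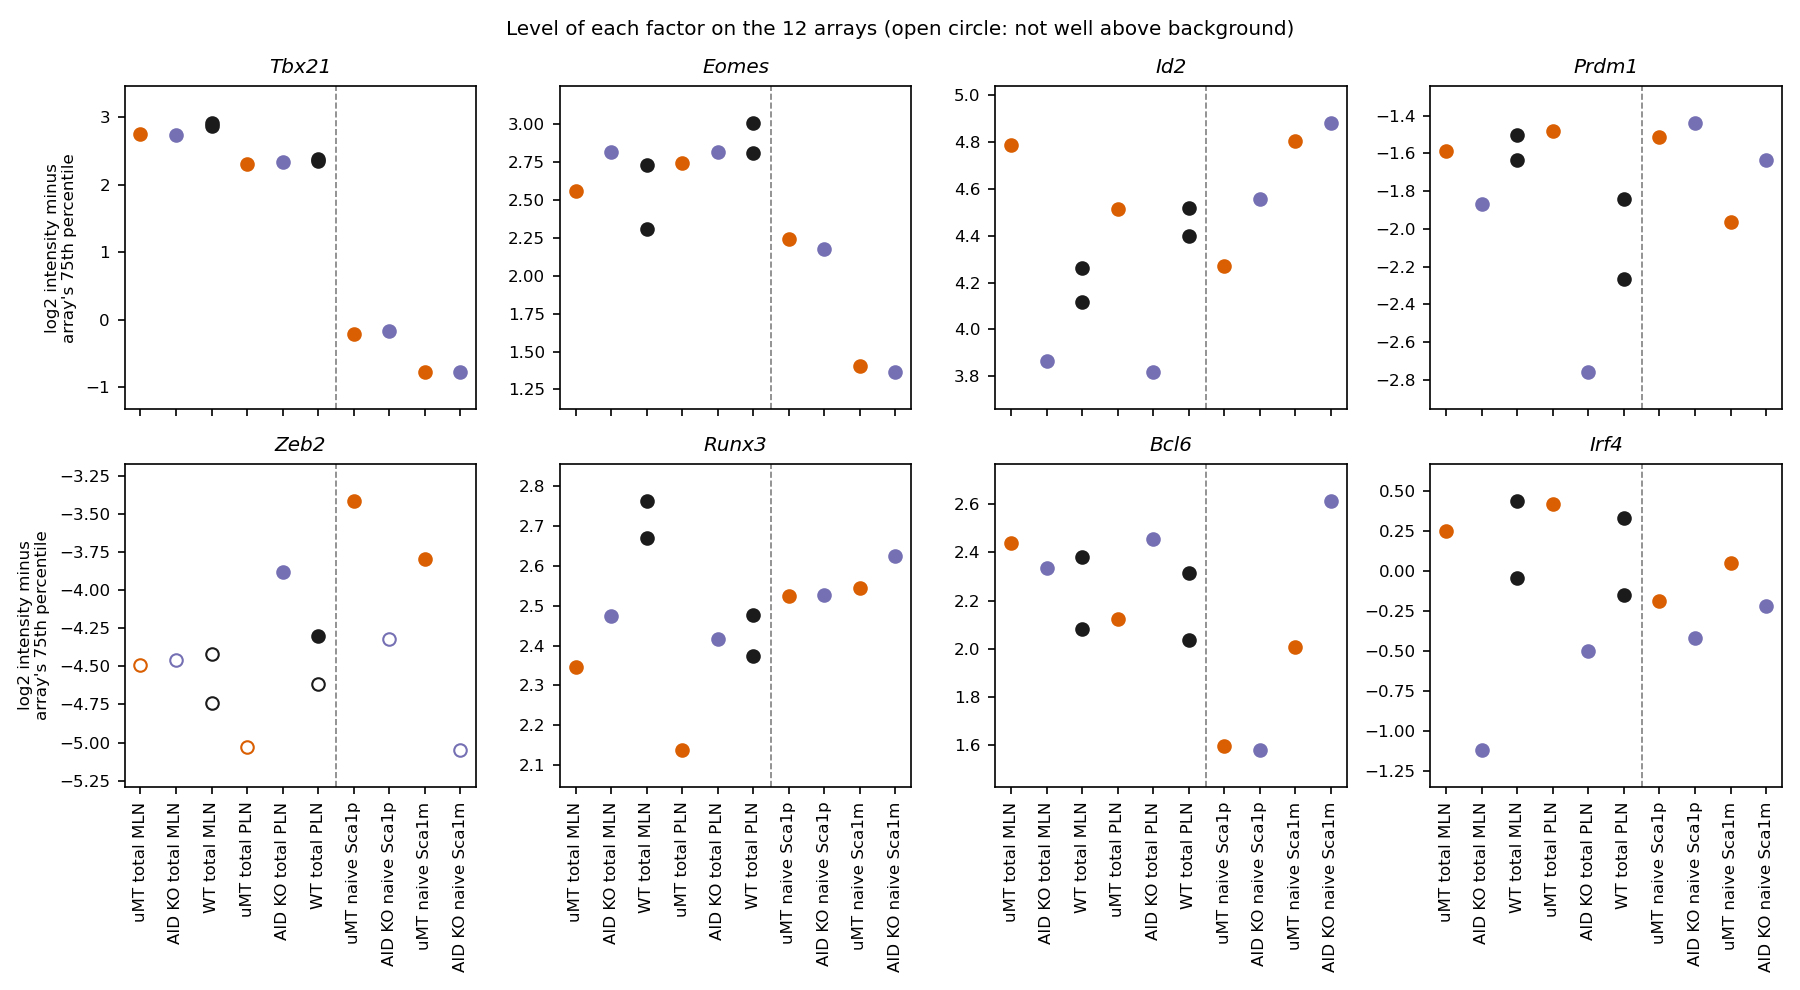
Level of each factor on each array, as log2 intensity minus the array's 75th percentile, with 1 circle per array (orange uMT, violet AID KO, black WT), open where the spot was not well above background. A dashed line parts the 8 total-cell arrays from the 4 naive arrays, and each panel has its own scale. Tbx21 and Eomes sit higher in all total-cell arrays than in all naive arrays, which were on a separate slide.

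Within naive cells, the fractions sorted by Sca-1 differed most in Eomes, Bcl6 and Tbx21 among the members well above background, and every one of the 8 members had the same sign in both genotypes. Eomes and Tbx21 were higher in the Sca1p fraction and Bcl6 was lower, while Runx3 and Irf4 differed little. None of these differences passed the test over all features: 0 of 8 members were called, with 4 of 25737 features called in all (0.0155%). At an unadjusted p under 0.05 there were 5 of 8 members, against 8.4% of all features. The share of all features with the same sign in both genotypes is not given here, nor the share whose fractions did not overlap. Same signs and lack of overlap are therefore not read as particular to these members.

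Eomes, the T-box factor linked to memory cells, was at 2.24 in uMT Sca1p and 2.18 in AID KO Sca1p cells, against 1.40 in uMT Sca1m and 1.36 in AID KO Sca1m cells. Both Sca1p values lay above both Sca1m values, and the genotypes lay close together. The fitted difference was 0.83 ± 0.14 on the log2 scale (standard error; 95% interval 0.47 to 1.18; limma adjusted p = 0.209), which is 1.77-fold. A second, much dimmer Eomes probe ran the same way in both genotypes, at -3.81 and -3.89 in the Sca1p fractions and -4.04 and -4.46 in the Sca1m fractions of uMT and AID KO mice.

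Tbx21, whose product T-bet activates Ifng and other effector genes, was at -0.21 in uMT Sca1p and -0.17 in AID KO Sca1p cells, and at -0.77 in both Sca1m samples. The groups did not overlap, and the fitted difference was 0.58 ± 0.09 (interval 0.36 to 0.80; limma adjusted p = 0.166). Bcl6, a repressor that opposes Blimp-1, was at 1.60 and 1.58 in uMT and AID KO Sca1p cells and at 2.01 and 2.61 in uMT and AID KO Sca1m cells. Its groups did not overlap, with a difference of -0.41 in uMT and -1.03 in AID KO cells. The fitted difference was -0.72 ± 0.15 (interval -1.10 to -0.34; limma adjusted p = 0.287), and it was -0.41 when either AID KO naive array was left out. The difference between the 2 genotypes in this Sca-1 contrast was not tested.

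The promoter windows of these 3 genes are shown because they carry the 3 members that differed most between the fractions at a level well above background. They are the 250 bases before a transcription start in the RefSeq table of GRCm38.p6, 5′ to 3′ on the gene's strand, with matches to the motifs searched in capitals.
Eomes chr9:118477939-118478188 (+): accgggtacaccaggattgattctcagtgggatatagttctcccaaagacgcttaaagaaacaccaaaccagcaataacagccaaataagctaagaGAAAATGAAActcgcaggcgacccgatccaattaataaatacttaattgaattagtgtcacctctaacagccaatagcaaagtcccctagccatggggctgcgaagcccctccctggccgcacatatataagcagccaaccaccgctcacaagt
Tbx21 chr11:97115332-97115581 (-): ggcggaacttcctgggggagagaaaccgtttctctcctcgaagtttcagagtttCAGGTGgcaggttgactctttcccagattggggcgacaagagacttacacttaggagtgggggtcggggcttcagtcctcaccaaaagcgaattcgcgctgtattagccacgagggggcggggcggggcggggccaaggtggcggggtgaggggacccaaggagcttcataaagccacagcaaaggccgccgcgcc
Bcl6 chr16:23981284-23981533 (-): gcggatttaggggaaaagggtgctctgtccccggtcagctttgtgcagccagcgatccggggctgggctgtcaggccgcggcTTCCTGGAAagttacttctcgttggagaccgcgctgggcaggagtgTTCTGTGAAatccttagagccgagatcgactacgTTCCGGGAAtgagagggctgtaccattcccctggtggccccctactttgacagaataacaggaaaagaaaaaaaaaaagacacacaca

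For orientation, short motifs were searched on both strands in windows from 250 bases before to 50 after each start, and 8 of 8 members matched the RefSeq table, with 13 windows. The motifs were the T-box core GGTGTG (in 19.0% of all 32851 windows of the table), the RUNX core TGTGGT (16.8%), the E-box CAGGTG read by ZEB factors (20.2%), the IRF element GAAANNGAAA (3.44%) and the STAT-type element TTCNNNGAA (8.30%). No capital stretch shown belongs to more than 1 motif. The Eomes window held 1 IRF element, starting at base -154 from the transcription start. The Tbx21 window held the E-box at -196. The Bcl6 window shown held 3 STAT-type elements, at -168, -122 and -88, and a second Bcl6 start had 1 at -118. Id2 and Irf4 had no match in these windows. A match describes letters only, and binding was not measured.

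The remaining 5 members were lower or higher in the Sca1p fraction by less, or near background. Zeb2, which acts with T-bet in terminal effector cells, was at -3.41 in uMT Sca1p and -4.32 in AID KO Sca1p cells, against -3.80 in uMT Sca1m and -5.05 in AID KO Sca1m cells. The AID KO spots were not well above background, so the fitted 0.55 ± 0.13 rests on dim signals, and it was 0.25 with another background correction. Id2 was at 4.27 and 4.56 in uMT and AID KO Sca1p cells and 4.81 and 4.88 in uMT and AID KO Sca1m cells, a fitted -0.43 ± 0.17 (interval -0.85 to -0.01). Prdm1 was at -1.51 and -1.44 in the Sca1p samples and -1.96 and -1.64 in the Sca1m samples, a fitted 0.32 ± 0.13 (interval -0.01 to 0.65). The intervals of Irf4 (-0.67 to 0.23) and Runx3 (-0.32 to 0.21) spanned 0.

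**Figure D2:**
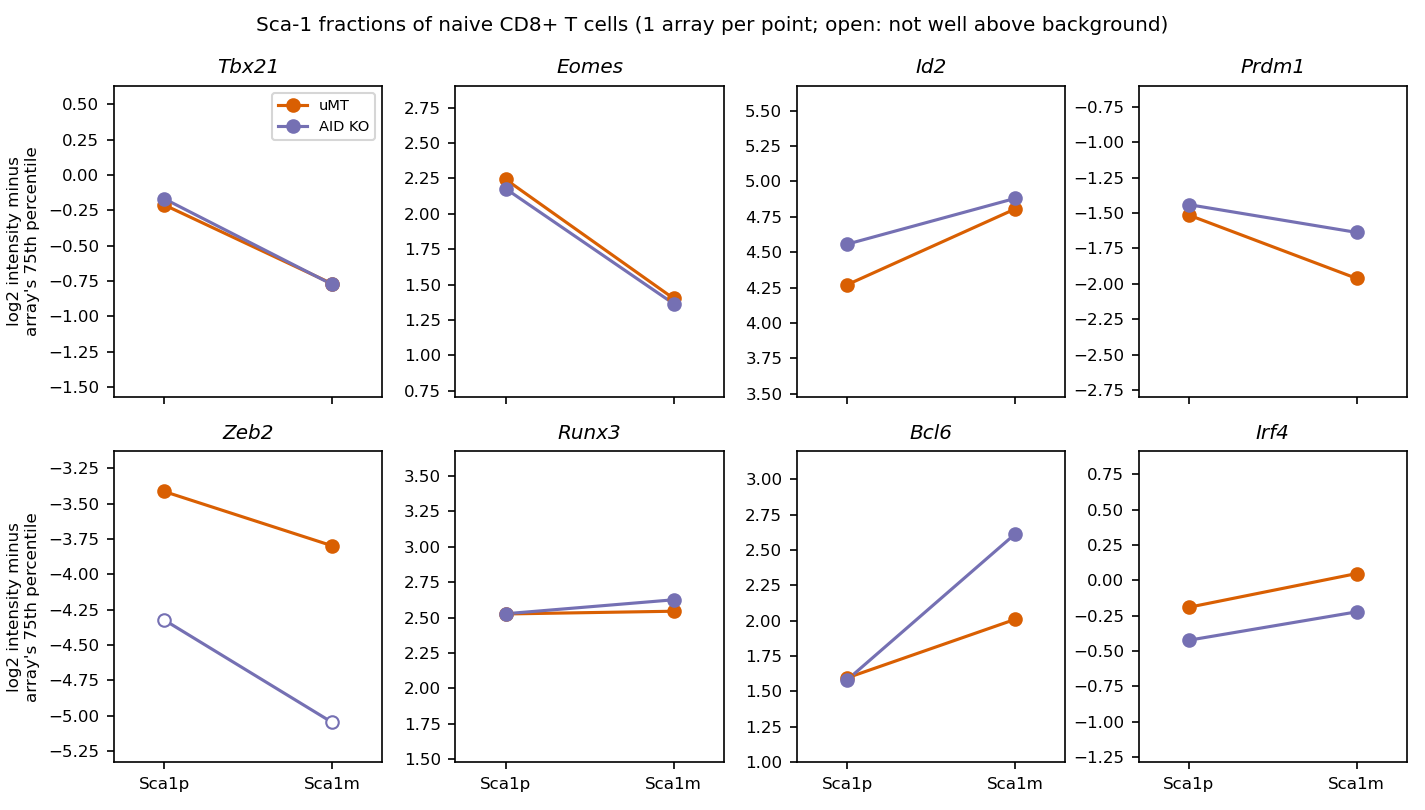
Levels of the 8 factors in naive CD8+ T cells by Sca-1 fraction, as log2 intensity minus the array's 75th percentile, with 1 line per genotype and 1 array per point, open where not well above background. Every panel spans the same height, so slopes can be compared. Both lines fall for Eomes, Tbx21, Zeb2 and Prdm1 towards Sca1m and climb for Bcl6 and Id2.

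Among genes that these factors are known to act on, 1 of 31 tested effector and memory genes was called, and it was higher in Sca1p cells: Cxcr3, a chemokine receptor of memory and effector cells. It was at 2.24 and 2.41 in uMT and AID KO Sca1p cells, against 0.22 and 0.15 in uMT and AID KO Sca1m cells, a difference of 2.14 ± 0.11 (limma adjusted p = 0.0238). The Cxcr3 call was lost with no filter on dim probes (0.0917), in a fit on naive cells alone (1.00), where 1 residual degree of freedom is left, and when any of the 8 total-cell arrays or either AID KO naive array was left out, with a limma adjusted p of up to 0.136 among those. A further 12 of the 31 had an unadjusted p under 0.05, against 8.4% of all features, 8 of them with a positive and 4 with a negative difference. The median over all 31 was 0.10, against 0.01 for all features. None of the 14 factors that hold the naive or memory-precursor state (Tcf7, Lef1, Bach2 and others), 0 of 20 partner factors and 0 of 17 genes of the antigen-receptor response were called, with medians of -0.05, 0.06 and -0.21. The 8 kept NK and innate lymphocyte markers summed to 15.7 to 23.0 times the 75th percentile in Sca1p and 13.97 to 14.3 times in Sca1m cells, with 5 of 8 higher and Ncr1 below the filter. The 7 kept CD4 and regulatory T cell markers summed to 6.02 to 6.38 in Sca1p and 5.17 to 5.34 in Sca1m cells, with 3 of 7 higher. Their part in the Sca-1 differences was not tested.

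In total CD8+ T cells, Irf4 was the member with the largest fitted difference between AID KO and WT. Irf4 and Id2 were each lower on both arrays labelled AID KO than on any of the other 6. The share of all features set apart in this way is not given here, so it is not read as particular to them. Prdm1 was also lower and Zeb2 higher on the AID KO arrays than on the WT array of their node and slide. None of these passed the test, and 0 of 8 members were called in this comparison, in which 232 of 25738 features were called (0.901%). At an unadjusted p under 0.05 there were 4 of 8 members, against 14.5% of all features.

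Irf4 was at -1.12 in AID KO MLN and -0.50 in AID KO PLN cells, against 0.44 and -0.04 in WT MLN and 0.33 and -0.15 in WT PLN cells. Against the WT array of the same node and slide it was lower by 1.08 in MLN and 0.83 in PLN. The fitted difference was -0.95 ± 0.16 (interval -1.34 to -0.56; limma adjusted p = 0.0664), a fold of 0.517. The second Irf4 probe was also lower on both AID KO arrays, at -3.28 in MLN and -3.08 in PLN, against -2.81 and -2.65 in WT MLN and -2.95 and -2.51 in WT PLN. Irf4 passed the threshold under some other settings, with adjusted p between 0.0248 and 0.517 over all of them.

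Prdm1, the Blimp-1 gene, was at -1.87 in AID KO MLN and -2.76 in AID KO PLN cells, against -1.63 and -1.50 in WT MLN and -2.27 and -1.84 in WT PLN cells. Within each node both WT values were higher, and the fitted difference was -0.50 ± 0.12 (interval -0.79 to -0.22; limma adjusted p = 0.128). Id2 was at 3.87 and 3.82 in AID KO MLN and PLN cells, and the 4 WT arrays lay between 4.12 and 4.52, a fitted -0.48 ± 0.15 (interval -0.84 to -0.12; limma adjusted p = 0.221). Zeb2 was 0.35 ± 0.11 higher (limma adjusted p = 0.252), but only 1 of 2 AID KO and 1 of 4 WT arrays had it well above background. The intervals of Tbx21 (-0.29 to 0.09), Eomes (-0.20 to 0.41), Runx3 (-0.35 to 0.10) and Bcl6 (-0.14 to 0.52) spanned 0.

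Genes around Irf4 in the antigen-receptor response were called in the same comparison. Of 17 tested, 6 fell and 0 rose in AID KO cells, with a median of -0.17 against 0.01 for all features. Dusp4, which dephosphorylates MAP kinases, fell by 2.50 ± 0.21 (limma adjusted p = 0.0229), and the orphan nuclear receptors Nr4a2 and Nr4a1, which antigen receptor signals induce, fell by 2.16 ± 0.20 and 1.66 ± 0.16 (limma adjusted p = 0.0173 and 0.0191). Of 20 partner factors, 2 fell: Nfil3, a bZIP factor, at -1.91 ± 0.16 and Bhlhe40, a basic helix-loop-helix repressor, at -1.56 ± 0.11 (limma adjusted p = 0.0154 and 0.00723). Of the 31 effector and memory genes, Ifng fell by 1.47 ± 0.16 (limma adjusted p = 0.0241), and Klrk1, which encodes the receptor NKG2D, rose by 2.09 ± 0.25 (limma adjusted p = 0.0321). When a block paired every knockout array with its same-slide, same-node WT array, none of these calls held: the directions stayed the same, with a limma adjusted p of 0.0819 for Bhlhe40, 0.127 for Nfil3, 0.135 for Nr4a2, 0.155 for Nr4a1, 0.173 for Dusp4 and Ifng and 0.198 for Klrk1. Each call was also lost when either AID KO array was left out, and with 2 to 6 of the other arrays left out in turn. None of the 14 naive and memory-precursor factors were called (median -0.01). The 8 kept B cell markers had a median of 0.34, with 7 of 8 higher, and summed to 21.3 to 25.7 in AID KO and 19.9 to 24.5 in WT cells. The 5 kept dendritic cell markers had a median of 0.40, with 3 of 5 higher, and summed to 62.7 to 141 in AID KO and 56.6 to 154 in WT cells. Both ranges span slides 1 and 2, between which these sums differed. The 4 kept plasma cell markers summed to 12.5 to 12.6 in AID KO and 13.8 to 18.0 in WT cells, with 3 of 4 higher in the fit and Mzb1 and Tnfrsf17 below the filter. The 4 kept macrophage and monocyte markers summed to 2.62 to 4.06 in AID KO and 4.25 to 5.35 in WT cells, with 1 of 4 higher. Their part in the differences was not tested.

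In total cells of uMT mice, Runx3 was lower on both arrays labelled uMT than on all WT arrays, and no other member had an unadjusted p under 0.05. Such a separation is not read as particular to Runx3, because its share over all features is not given here. There were 0 of 8 members called (background 0.035%, or 9 of 25738 features), and 1 of 8 at an unadjusted p under 0.05, against 18.4% of all features. Runx3 was at 2.35 in uMT MLN and 2.14 in uMT PLN cells, against 2.76 and 2.67 in WT MLN and 2.37 and 2.48 in WT PLN cells. The fitted difference was -0.33 ± 0.09 (interval -0.56 to -0.10; limma adjusted p = 0.189). A second, dimmer Runx3 probe was at -1.89 in uMT MLN and -1.34 in uMT PLN cells, against -0.93 and -0.90 in WT MLN and -1.30 and -1.12 in WT PLN cells, so it too was lowest in uMT within each node.

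For the other members, the uMT minus WT intervals spanned 0. Id2 (0.32), Prdm1 (0.28), Irf4 (0.19) and Bcl6 (0.08) were above 0, and Zeb2 (-0.24), Tbx21 (-0.11) and Eomes (-0.06) below it. For Irf4 the node pairs pointed in opposite directions, -0.19 in MLN and 0.57 in PLN. The same held for Eomes, at 0.25 in MLN and -0.26 in PLN. None of the 14 naive and memory-precursor factors, 20 partner factors, 31 effector genes or 17 antigen-receptor genes were called (medians -0.01, 0.04, 0.21 and -0.02, against 0.02 for all features). Some genes called in AID KO versus WT were also lower in uMT, without a call. Dusp4 was at -2.13 in uMT MLN and -1.40 in uMT PLN cells, against -0.15 to -0.10 in WT cells. Nr4a1 was at 4.63 and 4.83 in uMT MLN and PLN cells, against 5.18 to 5.78 in WT cells. Nfil3 differed by -0.77 ± 0.16 (limma adjusted p = 0.141). Bhlhe40 was not lower, and 8 of the 17 antigen-receptor genes were above 0. The 8 kept NK markers had a median of 0.38, with 7 of 8 higher in uMT, and summed to 11.9 to 25.5 in uMT and 10.4 to 20.0 in WT cells. The 7 kept CD4 and regulatory T cell markers summed to 6.50 to 6.78 in uMT and 5.36 to 5.84 in WT cells, with 5 of 7 higher, and the 2 kept erythroid genes summed to 1.05 to 7.28 in uMT and 0.12 to 3.65 in WT cells, with both higher. Their part was not tested.

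Set against each other, total cells of the 2 knockouts were apart in Irf4, Id2 and Prdm1, all higher in uMT than in AID KO within each node. These contrasts share their arrays with the comparisons against WT, so they add no independent samples. Within each node the uMT and AID KO arrays stood on different slides. The fit has a slide term, but the levels given are not adjusted for slide. Between WT arrays, slide 2 minus slide 1 was -0.48 for Irf4 in each node. It was 0.43 in PLN and 0.13 in MLN for Prdm1, and -0.12 in PLN and 0.14 in MLN for Id2. There were 0 of 8 members called (background 0.354%) and 4 of 8 at an unadjusted p under 0.05 (background 12.3%). Irf4 was at 0.24 in uMT MLN and 0.41 in uMT PLN cells, against -1.12 in AID KO MLN and -0.50 in AID KO PLN cells, and the fitted difference was 1.14 ± 0.18 (interval 0.69 to 1.59; limma adjusted p = 0.0960). Id2 was at 4.79 and 4.51 in uMT MLN and PLN and 3.87 and 3.82 in AID KO MLN and PLN cells, a fitted 0.81 ± 0.17 (limma adjusted p = 0.1602). Prdm1 was at -1.59 and -1.48 in uMT MLN and PLN and -1.87 and -2.76 in AID KO MLN and PLN cells, a fitted 0.78 ± 0.13 (limma adjusted p = 0.115).

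Zeb2 was not well above background on either uMT array and was so on 1 of 2 AID KO arrays, so no fold is given. It was at -4.49 in uMT MLN and -5.03 in uMT PLN cells, against -4.46 in AID KO MLN and -3.88 in AID KO PLN cells, so the MLN values differed by only 0.03 and both were dim. Of 17 antigen-receptor genes, 0 were called lower in uMT than in AID KO and 2 were called higher. Fos, an AP-1 subunit, was higher by 1.78 ± 0.12 and Cd69, an early activation marker, by 1.42 ± 0.10 (both limma adjusted p = 0.0123). Bhlhe40 was higher in uMT than in AID KO by 1.78 ± 0.12 (limma adjusted p = 0.0123), the 1 of 20 partner factors called. With the matched pair blocks these 3 calls were lost (limma adjusted p = 0.171 for Fos, 0.204 for Cd69 and 0.251 for Bhlhe40), and so they were when any of the 4 knockout arrays was left out, or 1 to 3 of the WT arrays in turn. Against WT, AID KO differed by -1.40 in Fos and -0.92 in Cd69 (limma adjusted p = 0.0107 and 0.0168). With the matched pair blocks those values were 0.0810 and 0.135. Fos was at 3.77 to 4.69 in AID KO, 5.33 to 5.99 in WT and 5.88 to 6.15 in uMT cells. Bhlhe40 in uMT cells overlapped WT. Of 31 effector genes and 14 naive and memory-precursor factors, 0 were called between the knockouts, with medians of 0.06 and 0.02. Of the 8 kept B cell markers 1 was higher in uMT (median -0.56), and they summed to 22.7 to 25.6 in uMT and 21.3 to 25.7 in AID KO cells. Both kept erythroid genes were higher in uMT (median 2.31), with sums of 1.05 to 7.28 in uMT and 0.287 to 1.57 in AID KO cells. Of the NK markers 7 of 8 were higher (median 0.35), with sums of 11.9 to 25.5 in uMT and 7.497 to 13.4 in AID KO cells. The CD4 and regulatory T cell markers had 5 of 7 higher (median 0.25), with sums of 6.50 to 6.78 in uMT and 5.39 to 5.75 in AID KO cells, and the plasma cell markers 1 of 4 (median -0.84), with sums of 12.3 to 14.1 in uMT and 12.5 to 12.6 in AID KO cells. Their part was not tested.

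Between lymph nodes, Tbx21 was the member that differed most evenly: it was higher in MLN than in PLN in each of 4 pairs and by nearly the same amount. Prdm1 was higher in MLN in 3 of 4 pairs, while Eomes was lower in 3 of 4. Only the WT pairs lie within a slide, whereas the uMT and AID KO pairs span both slides. Runx3 was higher in 4 of 4 by its brightest probe, but not by its second probe. There were 0 of 8 members called (background 0.12%, or 31 of 25738 features), and 3 of 8 at an unadjusted p under 0.05, against 8.96% of all features. MLN drain the gut and PLN the body surface.

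Tbx21 was at 2.75 in uMT MLN, 2.73 in AID KO MLN and 2.91 and 2.87 in WT MLN cells, against 2.30 in uMT PLN, 2.33 in AID KO PLN and 2.39 and 2.35 in WT PLN cells. The 4 MLN values lay above the 4 PLN values with no overlap. How many of all features also did not overlap is not given here, so this is not read as particular to Tbx21. The fitted difference was 0.47 ± 0.06 (interval 0.32 to 0.63; limma adjusted p = 0.0907), or 1.39-fold, and the 4 pairs gave 0.45 in uMT, 0.40 in AID KO and 0.52 in both WT pairs. The 2 WT arrays of a node differed by only 0.03 in MLN and 0.04 in PLN. Eomes, the other T-box factor, was at 2.56 in uMT MLN, 2.82 in AID KO MLN and 2.31 and 2.73 in WT MLN cells, against 2.74, 2.81, 2.81 and 3.003 in uMT, AID KO and WT PLN cells. Its fitted difference was -0.24 ± 0.10 with an interval of -0.49 to 0.01.

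Prdm1 was at -1.59 in uMT MLN, -1.87 in AID KO MLN and -1.63 and -1.50 in WT MLN cells, against -1.48 in uMT PLN, -2.76 in AID KO PLN and -2.27 and -1.84 in WT PLN cells. The groups overlapped through the uMT pair, which gave -0.11, whereas the AID KO pair gave 0.89 and the WT pairs 0.63 and 0.34. The uMT pair sets MLN on slide 1 against PLN on slide 2, and the AID KO pair the reverse. WT Prdm1 was higher on slide 2 than on slide 1, by 0.43 in PLN and 0.13 in MLN. Node and slide therefore cannot be told apart within the uMT and AID KO pairs. The fitted difference was 0.44 ± 0.10 (interval 0.20 to 0.67; limma adjusted p = 0.256). Runx3 was 0.21 ± 0.08 higher in MLN (interval 0.02 to 0.40; limma adjusted p = 0.507), with pair differences of 0.21 in uMT, 0.06 in AID KO and 0.39 and 0.19 in WT. The second, dimmer Runx3 probe was higher in MLN in the WT pairs only. It was at -1.89 in uMT MLN and -1.34 in uMT PLN cells, and at -1.23 in AID KO MLN and -1.14 in AID KO PLN cells. In WT it was at -0.93 and -0.90 in MLN and -1.30 and -1.12 in PLN cells. The intervals of Id2 (-0.35 to 0.24), Bcl6 (-0.19 to 0.34), Irf4 (-0.46 to 0.18) and Zeb2 (-0.30 to 0.16) spanned 0.

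**Figure D3:**
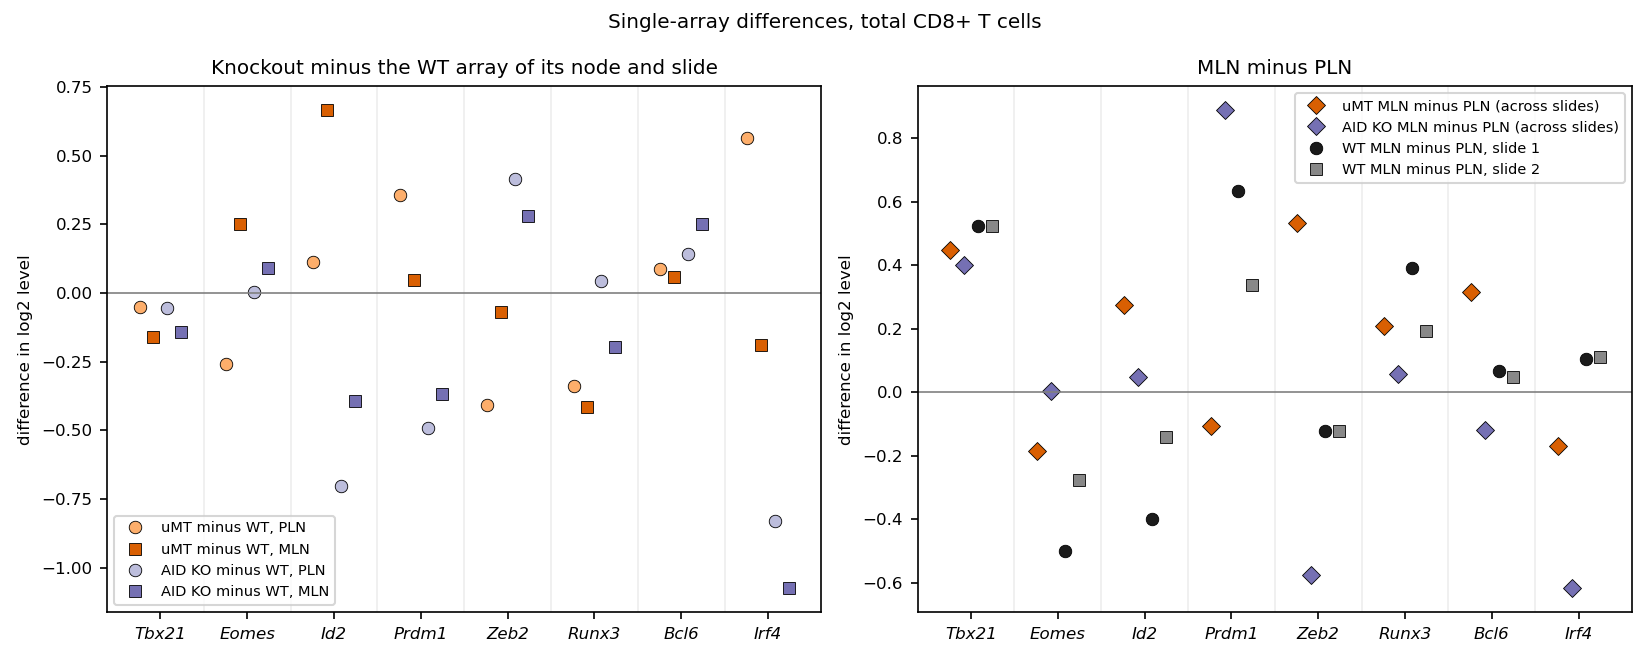
Single-array differences of the 8 factors in total CD8+ T cells, in log2 units. The left panel shows uMT (orange) and AID KO (violet) minus the WT array of the same node and slide, circles for PLN and squares for MLN, and the right panel shows MLN minus PLN for each pair, where the uMT and AID KO pairs span both slides. Both AID KO points lie below 0 for Irf4, Prdm1 and Id2, and all 4 node pairs lie between 0.40 and 0.52 for Tbx21.

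The only called gene of the pathway lists was Hic1, 1 of 20 partner factors, a zinc-finger repressor that responds to retinoic acid in mouse gut lymphocytes. It was at -0.08 in uMT MLN, 0.02 in AID KO MLN and 0.53 and 0.26 in WT MLN cells, against -2.11, -2.73, -1.99 and -2.08 in uMT, AID KO and WT PLN cells, a difference of 2.41 ± 0.13 (limma adjusted p = 0.00541). Leaving out either AID KO array or either WT PLN array brought its limma adjusted p to between 0.0628 and 0.0646. The 31 effector genes, 17 antigen-receptor genes and 14 naive and memory-precursor factors had 0 calls, with medians of -0.12, 0.07 and -0.12 against -0.01 for all features. The 2 kept erythroid genes were higher in MLN (median 3.58) and summed to 1.57 to 7.28 in MLN and 0.12 to 1.05 in PLN cells, with Alas2 and Slc4a1 below the filter. Their part in the node differences was not tested.

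Whether the knockouts moved these factors by different amounts in the 2 nodes was asked with a term that both knockouts share. There were 0 of 8 members called and 0 of 25738 features (background 0%), with 1 of 8 members at an unadjusted p under 0.05, against 4.33% or 1114 of all features. That member was Irf4, whose knockout minus WT difference was lower in MLN than in PLN by 0.50 ± 0.17 on the log2 scale (interval -0.95 to -0.05; limma adjusted p = 0.999). The intervals of the other 7 members spanned 0. The pathway lists had 0 calls, with medians from -0.07 to 0.14.

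Between naive cells of the 2 knockouts, the intervals of 7 of the 8 factors spanned 0, and Zeb2 was the exception. Zeb2 was at -3.41 and -3.80 in uMT Sca1p and Sca1m cells, against -4.32 and -5.05 in AID KO Sca1p and Sca1m cells. The uMT spots were well above background and the AID KO spots were not, and the fitted difference was 1.08 ± 0.13 (limma adjusted p = 0.0518). With normexp background correction it was 0.24, so the size of the difference depends on how background is removed and no fold is given. The other Zeb2 probes were well above background on 0 arrays and ran the other way. The first was at -5.88 and -5.60 in uMT Sca1p and Sca1m cells, against -4.02 and -5.24 in AID KO Sca1p and Sca1m cells. The next was at -6.44 and -6.57 in the same uMT cells, against -6.32 and -6.27 in AID KO.

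There were 0 of 8 members called between naive uMT and AID KO cells (background 0.346%, or 89 of 25734 features), and 1 of 8 at an unadjusted p under 0.05, against 8.87% of all features. The narrowest interval was that of Tbx21, from -0.24 to 0.20, and the widest that of Irf4, from -0.20 to 0.70. Of 31 effector genes, 1 was called lower in uMT: Klrk1, which was not well above background on either uMT naive array (limma adjusted p = 0.00607). Under the main processing only, it was at least 8.49-fold lower there than in AID KO naive cells. That bound sets the mean of AID KO against the lowest signal that counted as well above background on each uMT array, or the probe's own where that was higher. With normexp the difference was -1.89 (limma adjusted p = 0.0633), smaller than that bound, and in a fit on naive cells alone the limma adjusted p was 0.371. The median of these 31 genes was -0.14, against 0.01 for all features. The 14 naive and memory-precursor factors, 20 partner factors and 17 antigen-receptor genes had 0 calls (medians 0.08, 0.04 and -0.06). The 8 kept B cell markers summed to 21.9 to 23.9 in uMT and 24.8 to 28.1 in AID KO naive cells, with 2 of 8 higher, and the 4 kept macrophage markers to 2.94 to 3.10 in uMT and 3.32 to 3.33 in AID KO naive cells, with 2 of 4 higher. Their part was not tested.

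**Figure D4:**
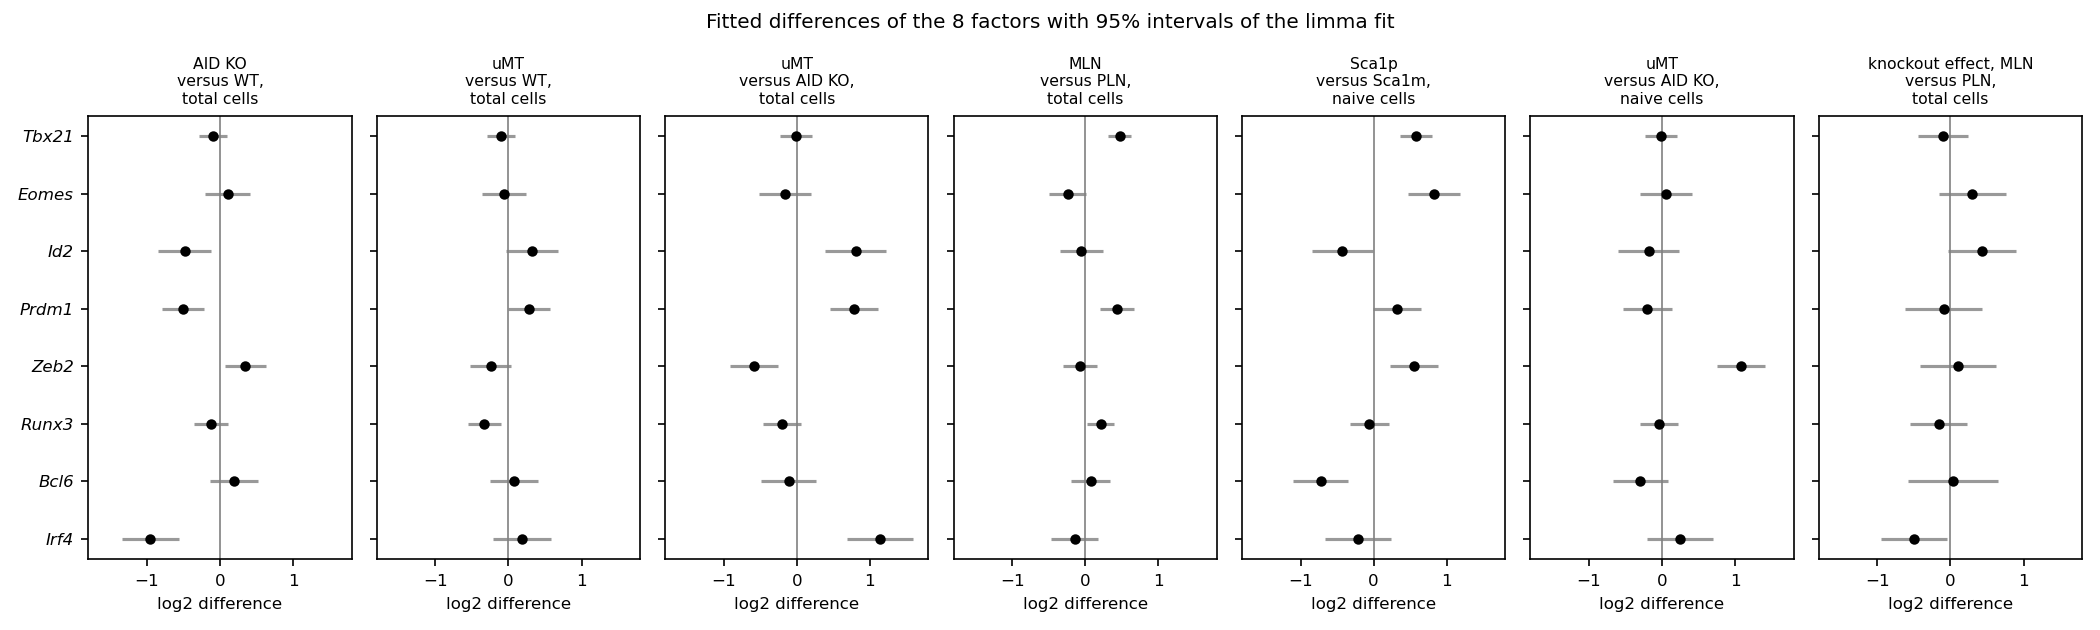
Fitted log2 differences of the 8 factors in the 7 comparisons, each the first-named group minus the second, with 95% intervals of the limma fit as grey bars. Intervals clear of 0 include Irf4, Prdm1 and Id2 in AID KO versus WT, Tbx21 in MLN versus PLN and Eomes, Tbx21 and Bcl6 by Sca-1 fraction, and none of the 56 differences passed the adjusted threshold.

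The genes whose pattern was most like each member were found by Pearson correlation over the 12 arrays after the mean of each slide was removed, among 11487 genes well above background on all arrays. The arrays share slides and cell samples, so these values describe the arrays and carry no test. Eomes ran closest with Slc9a7 (r = 0.93), Cxcr3 (0.92) and F2rl1 (0.91), and Tbx21 with Wfdc2 (0.92), Plcg2 (0.91) and Pde2a (0.91). Id2 ran closest with Map1lc3b, Ctla4 and Mdm2 (0.94 each), and Prdm1 with Klf4 (0.93), Jun (0.93) and Mtx1 (0.92). Irf4 ran closest with Dnajc21 (0.96), Ccdc93 (0.96) and Bex2 (0.95), Runx3 with Ski (0.97), Apol9a (0.94) and Olfr1513 (0.92), and Bcl6 with Zfp456 (0.95), Abcb11 (0.94) and 1700084E18Rik (0.93). Zeb2, mostly near background, ran closest with Carnmt1 (0.95), Zfp982 (0.90) and Zfp457 (0.88). Among the members themselves, Eomes and Bcl6 ran most oppositely (r = -0.74), and Id2 with Irf4 (0.66) and Tbx21 with Prdm1 (0.63) ran most alike. The r of Eomes and Bcl6 includes the naive arrays, whose Sca-1 fractions differed oppositely in these genes. It was not computed for total cells alone.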

How the data were processed

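CD8+ T cell RNA was measured on 12 arrays. The deposited scanner files hold intensity per spot, background-subtracted and detrended by Agilent Feature Extraction 11.0.1.1, per the file headers and the submitters' processing notes, with other columns of 0 or 1 flags. The deposited series matrix holds the authors' log2 values. Their sorted values were shared within each slide (medians 9.47, 8.59 and 8.99), as quantile normalization per slide gives, and they served as an alternative. Outlier spots (61 to 342 per array) were left out, and 0 were saturated. Probes were named by accession through RefSeq: of 56605 probes, 32994 had 1 symbol, 0 several and 23611 none. Log2 intensity minus each array's 75th percentile over all non-control probes was tested in limma 3.58.1 (R 4.3.3) for 25738 features well above background on at least 2 arrays.

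One fit over all 12 arrays held an intercept, uMT and Sca1p for naive cells and, for total cells, terms for uMT, AID KO, slide and node, with 4 residual degrees of freedom (3 with the node by knockout term). P-values are two-sided, Benjamini-Hochberg adjusted over all features, threshold 0.05. Values after ± are standard errors, intervals are 95%. The number of arrays limits the precision. The procedure was tested on simulated data. The members and gene lists were chosen with earlier results of these data known. Named genes are the members, up to 3 called genes per pathway list and comparison with the largest difference, and the 3 genes most correlated with each member. Ly6a and Cd44 check the sorts, and markers named show what the filter left out. Other settings were background correction, normalization, dim-probe filters, probe choice, slide terms, and leaving out arrays. The normexp correction used median spot signals, because mean signals were not in the files used here. Some items are not reported here.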

Additional observations from a re-analysis of the deposited data

How the results depend on the processing

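Over 23 settings, 56 member differences gave 1178 values: 1144 kept their direction and their side of the threshold, 11 passed it and 23 turned direction, and 42 differences never turned. In AID KO versus WT, 1 member (Irf4) was called with normexp, with the series matrix values and with only probes well above background on all arrays, and 0 to 1 when 1 array was left out (1 without the uMT MLN or the uMT PLN array). In uMT versus AID KO total cells, 1 (Irf4) was called with normexp and 2 (Irf4 and Prdm1) with only probes above background on all arrays, where fewer features are tested. That filter also called 1 in MLN versus PLN (Tbx21). In uMT versus AID KO naive cells, 1 (Zeb2) was called with quantile normalization and with the percentile over probes above background on all arrays. The cause was not tested otherwise.

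The Runx3 difference by Sca-1 turned to 0.0013 with normexp. With the mean of a gene's probes, that of Irf4 by Sca-1 turned to 0.51, because its dimmer probe lacks a spot on the uMT Sca1p array, and that of Eomes in the node by knockout term to -0.10. Leaving out 1 array at a time turned differences near 0, none of them called. They ranged from -0.32 to 0.20 for Eomes and -0.19 to 0.57 for Irf4 (uMT versus WT), from -0.0633 to 0.0469 for Tbx21 and -0.42 to 0.0933 for Eomes (uMT versus AID KO, total), and from -0.19 to 0.0471 for Id2 and -0.24 to 0.046 for Irf4 (MLN versus PLN). In naive uMT versus AID KO they ranged from -0.0435 to 0.0048 for Tbx21 and -0.60 to 0.0139 for Bcl6. In the node by knockout term they ranged from -0.31 to 0.12 for Prdm1, -0.14 to 0.34 for Zeb2 and -0.0299 to 0.11 for Bcl6.

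Counts over all features moved more, in the order AID KO versus WT, uMT versus WT, uMT versus AID KO in total cells, MLN versus PLN, Sca1p versus Sca1m, uMT versus AID KO in naive cells and the node by knockout term. Against 232, 9, 91, 31, 4, 89 and 0 features, the lowest counts over the other settings were 14, 0, 1, 16, 0, 0 and 0 and the highest 586, 111, 194, 74, 22, 115 and 26. Without 1 array the lowest were 1, 0, 1, 2, 0, 26 and 0 and the highest 159, 8, 36, 22, 177, 202 and 0. The split of higher and lower calls in AID KO versus WT was 60 and 172, and 151 and 238 with normexp or 180 and 244 with the series matrix. No scaling moved the median of all features by over 0.1. Blocking each knockout array with the WT array of its node and slide, as the paired analysis, called 14, 2 and 1 features in AID KO versus WT, uMT versus WT and uMT versus AID KO, with 0 members and 0 of the pathway-list calls given above among them. The dim signal of Zeb2 limits what its differences show.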
